A study of Homo sapiens with 12 samples.

Results

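The genes described here are ATF4 and 9 regulators of the integrated stress response that act with it or below it: ATF3, ATF5, DDIT3, TRIB3, CHAC1, SESN2, DDIT4, NUPR1 and CEBPB. They were taken by gene symbol, and all 10 were found among the 58884 genes of the deposited table. RNA came from KYSE70, an established human esophageal squamous cell carcinoma line, grown in serum-containing medium. There were 12 libraries in 3 groups of 4: an untreated control, a group exposed for 72 h to pyrimethamine at 10 µM, and a group exposed for 72 h to mitoxantrone at 20 nM. Pyrimethamine is an antifolate and mitoxantrone a DNA intercalator that poisons type II topoisomerases, and the series title calls both NRF2 inhibitors. The study therefore holds 1 cell line, with 1 dose and 1 time for each drug. Whether the control cells received a vehicle, and whether a group's 4 libraries are from cultures grown apart, is not stated in the labels, so the p-values below measure a spread that may be technical.

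The integrated stress response starts when a kinase phosphorylates the translation factor eIF2. The kinases are HRI (EIF2AK1), PKR (EIF2AK2), PERK (EIF2AK3) and GCN2 (EIF2AK4), which sense heme or mitochondrial trouble, double-stranded RNA, unfolded protein in the endoplasmic reticulum and uncharged tRNA. Phosphorylated eIF2 blocks its exchange factor eIF2B, so most translation slows, while short upstream reading frames in the ATF4, ATF5, DDIT3 and CHAC1 messages let these be translated more. ATF4 protein then pairs with C/EBP proteins on composite C/EBP-ATF DNA elements and raises genes of amino acid supply, tRNA charging, redox defense and, through DDIT3 (CHOP), cell death. Control of ATF4 is therefore partly translational, and the RNA levels given here do not measure its protein or the phosphorylation of eIF2. In bulk RNA, a change in the number of cells that express a gene and a change in its RNA per cell cannot be told apart.

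Depth ran from 47.5 M to 94.5 M gene-assigned reads per library. Values are normalized counts, that is, reads per gene divided by 1 factor per library. All 10 genes passed the filter of at least 10 normalized counts in at least 4 of 12 libraries, as did 16950 genes in all. Of 6 squamous markers, KRT5, KRT6A, TP63 and DSG3 were abundant, while KRT14 and KRT17 were low, at means of 136 and 829.6 normalized counts in the control. Of 6 markers of leukocytes, endothelium and fibroblasts, only COL1A1 was above 29.4 normalized counts in any library, with a control mean of 14955, and COL1A2 was at 0 in the control and mitoxantrone libraries. The summed level of those 6 markers was almost wholly that of COL1A1. The sum ran from 14581 to 15372 in the control, 10556 to 11896 under pyrimethamine and 3876 to 5211 under mitoxantrone. Its part in the results was not tested. The share of reads from mitochondrially encoded transcripts was 6.43% ± 0.230 in control libraries, 7.65% ± 0.621 with pyrimethamine and 3.71% ± 0.321 with mitoxantrone (SD, n = 4 each). The mitoxantrone replicate 1 library stood apart: its mean squared difference from the other 3 libraries of its group was 31.1 to 44.5 times the counting variance, against 6.67 to 14.6 times among those 3. Member calls that were lost without it are given with and without it, and other values include it unless stated.

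Of the 10 genes, 6 fell under pyrimethamine and rose under mitoxantrone: ATF4, TRIB3, CHAC1, DDIT4, NUPR1 and CEBPB. ATF3 and ATF5 did the opposite, and DDIT3 and SESN2 rose under both drugs. Against the control, 4 members were thus higher and 6 lower under pyrimethamine, and 8 were higher and 2 lower under mitoxantrone. Between the drugs, 8 were higher and 2 lower under mitoxantrone. Such calls were common in these libraries, since 53.3% of tested genes were called for pyrimethamine (26.4% higher and 26.9% lower), 69.3% for mitoxantrone (33.5% higher and 35.8% lower) and 76.4% between the drugs (36.9% higher and 39.5% lower under mitoxantrone). A called change of at least 2-fold was less common: it was seen under pyrimethamine in 3 members (ATF4, DDIT4 and NUPR1) and 6.7% of tested genes, and under mitoxantrone in 4 members (ATF4, DDIT3, TRIB3 and DDIT4) and 17.7% of tested genes. Between the drugs it was seen in 9 members, all but SESN2, and in 25.2% of tested genes. Falling under pyrimethamine and rising under mitoxantrone was seen in 13.3% of tested genes, the reverse in 12.6%, a rise under both in 7.1% and a fall under both in 7.06%. Both drugs were compared with the same 4 control libraries, so the 2 comparisons are not independent.

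**Figure D1:**
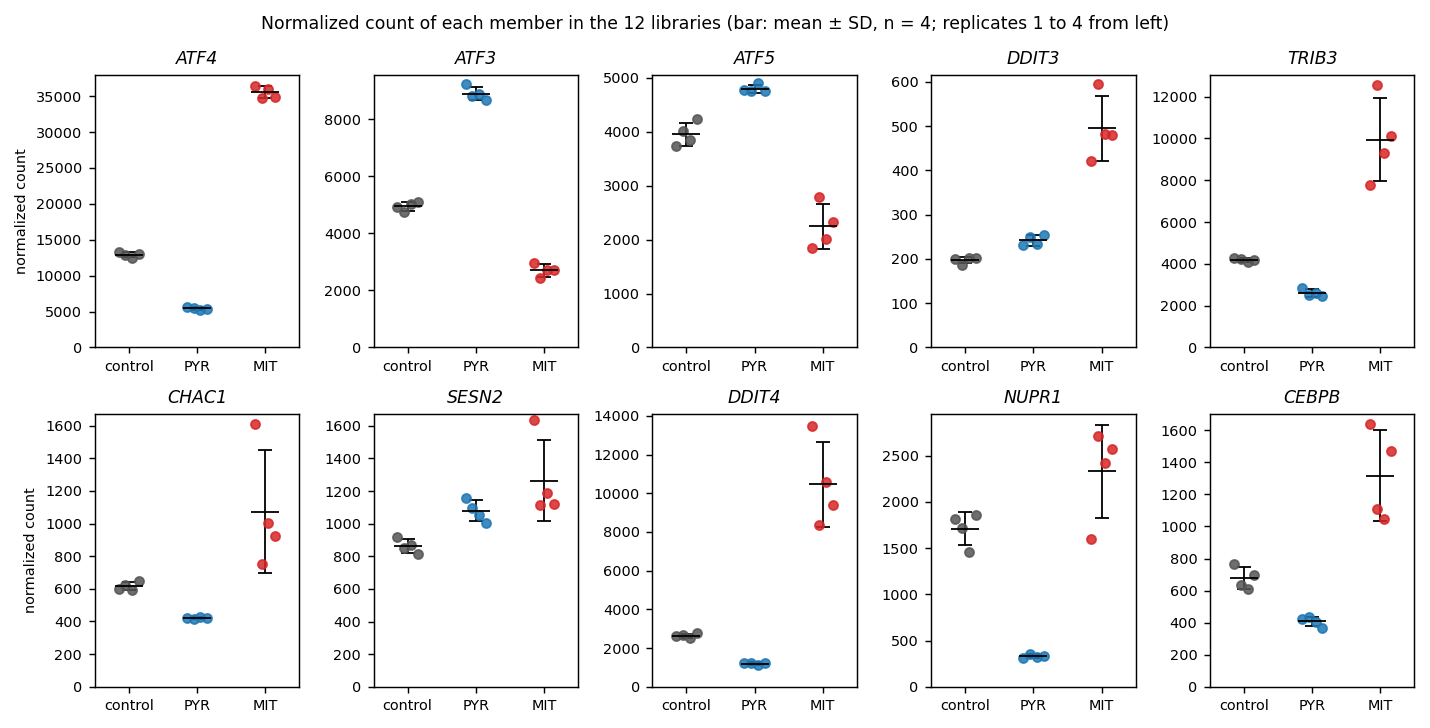
Normalized count (y axis, from 0) of each of the 10 genes in the 12 libraries, by group (x axis: control, pyrimethamine as PYR, mitoxantrone as MIT); points are libraries, with replicates 1 to 4 from left to right, and bars the mean ± SD, n = 4. ATF4 lies at 12399.6 to 13302 in the control, at 5274 to 5625 under pyrimethamine and at 34718 to 36461 under mitoxantrone, and the mitoxantrone points of most other genes are more spread out.

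ATF4, the central activator of the response (chromosome 22, 39519695 to 39522685 on GRCh38), fell 2.37-fold under pyrimethamine and rose 2.75-fold under mitoxantrone. Its normalized counts were 13302, 12947, 12399.6 and 13037 in control replicates 1 to 4. Under pyrimethamine they were 5625, 5562, 5274 and 5349.5. Under mitoxantrone they were 36461, 34718, 36012 and 34933. The 3 groups did not overlap, and the libraries of each group lay close together (SD 379, 167 and 839.8). The log2 change was -1.24 under pyrimethamine (SE 0.0350, adjusted p = 3.12e-16) and 1.46 under mitoxantrone (SE 0.0350, adjusted p = 2.08e-18). For every gene the SE comes from all 12 libraries and is the same in each comparison. It is not the spread of the compared groups alone. Between the drugs ATF4 was 6.52-fold higher under mitoxantrone (95% interval 6.20 to 6.85), a larger rise than in 99.4% of tested genes.

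ATF3 and ATF5, basic leucine zipper factors that ATF4 can induce, moved against ATF4. ATF3 (chromosome 1, 212565334 to 212620777) is also an immediate early gene that can repress its targets. Its normalized counts were 4909, 4746, 5018 and 5104 in the control, 9221, 8804, 8891 and 8668 under pyrimethamine, and 2954, 2418, 2707 and 2707 under mitoxantrone. Every pyrimethamine library was above, and every mitoxantrone library below, all control libraries. ATF3 rose 1.80-fold under pyrimethamine (log2 change 0.85, SE 0.0477, adjusted p = 6.78e-12) and fell 1.84-fold under mitoxantrone (log2 change -0.88, SE 0.0477, adjusted p = 7.94e-13). ATF5 (chromosome 19, 49928702 to 49933935), an activator of mitochondrial stress genes, had 3729.5, 4014, 3847 and 4228 normalized counts in the control. It had 4765, 4761, 4907 and 4756 under pyrimethamine, and 1837, 2785, 2018 and 2332 under mitoxantrone. Again no groups overlapped, and the mitoxantrone libraries were spread over a wider range than the others. ATF5 rose 1.21-fold under pyrimethamine (log2 change 0.28, SE 0.0809, adjusted p = 0.00597) and fell 1.78-fold under mitoxantrone (log2 change -0.83, SE 0.0809, adjusted p = 8.21e-09). Of its annotated exon sequence, 21.2% is also exon of NUP62 on the other strand, and the strand setting of the counting is not stated. NUP62 had log2 changes of -0.09 under pyrimethamine and 0.16 under mitoxantrone, each opposite in sign to ATF5.

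CEBPB and DDIT3 encode members of the C/EBP family, with which ATF4 forms heterodimers. CEBPB (chromosome 20, 50190734 to 50192689) had 764, 636, 610.4 and 696 normalized counts in the control, 425, 436, 404 and 366 under pyrimethamine, and 1639, 1111, 1049 and 1471 under mitoxantrone. The groups did not overlap, and mitoxantrone replicates 1 and 4 lay above replicates 2 and 3. CEBPB fell 1.66-fold under pyrimethamine (log2 change -0.73, SE 0.112, adjusted p = 1.12e-05) and rose 1.92-fold under mitoxantrone (log2 change 0.94, SE 0.112, adjusted p = 1.73e-07). Exons of the antisense transcript CEBPB-AS1 cover 11.8% of its exon sequence, and that transcript had the same signs, with log2 changes of -0.97 and 1.32 at a control mean of 78.4 normalized counts.

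DDIT3 (chromosome 12, 57516588 to 57521737), the CHOP gene, whose product dimerizes with other C/EBP factors and promotes death in prolonged stress, was the least abundant member by normalized count. Its values were 200.2, 186, 201 and 202 in the control, 231, 249, 233 and 255 under pyrimethamine, and 420.4, 596, 482 and 481 under mitoxantrone. The groups did not overlap, although the pyrimethamine libraries lay close above the control. DDIT3 rose 2.48-fold under mitoxantrone (log2 change 1.31, SE 0.102, adjusted p = 2.71e-10) and 1.22-fold under pyrimethamine (log2 change 0.29, SE 0.102, adjusted p = 0.0203). The pyrimethamine call was lost without control replicate 2 (log2 change 0.27, adjusted p = 0.0578), without pyrimethamine replicate 4 (0.27, adjusted p = 0.0536) and with libraries rescaled to the same total (0.24, adjusted p = 0.0529). Of the DDIT3 exon sequence, 27.2% is also exon of the methionyl-tRNA synthetase gene MARS on the other strand, which had a control mean of 15060.3 normalized counts and log2 changes of -0.41 under pyrimethamine and 0.93 under mitoxantrone. Without a stated strand setting, reads of this shared stretch cannot be told apart, and the part of MARS in the DDIT3 values was not tested.

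TRIB3, CHAC1 and NUPR1 are targets of ATF4 and DDIT3. TRIB3 (chromosome 20, 362835 to 397559) encodes a pseudokinase that binds ATF4 and CHOP and dampens their activity, as well as AKT. It had 4302, 4242, 4084 and 4185 normalized counts in the control, 2868, 2497, 2585 and 2443 under pyrimethamine, and 7781, 12548, 9324 and 10099.9 under mitoxantrone. No groups overlapped, but mitoxantrone replicate 2 was far above replicate 1. TRIB3 fell 1.62-fold under pyrimethamine (log2 change -0.70, SE 0.0879, adjusted p = 9.02e-07) and rose 2.33-fold under mitoxantrone (log2 change 1.22, SE 0.0879, adjusted p = 7.43e-11).

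CHAC1 (chromosome 15, 40952962 to 40956519) encodes a cytosolic enzyme that breaks down glutathione. Its normalized counts were 598, 623, 594 and 649.6 in the control, 424, 418, 426 and 418 under pyrimethamine, and 1612, 751, 1004 and 926 under mitoxantrone. The pyrimethamine libraries lay within a narrow range (mean 421, SD 3.94, n = 4), while mitoxantrone replicate 1 was far above every other library. CHAC1 fell 1.46-fold under pyrimethamine (log2 change -0.55, SE 0.139, adjusted p = 0.00220) and rose 1.67-fold under mitoxantrone (log2 change 0.74, SE 0.139, adjusted p = 6.88e-05). Without mitoxantrone replicate 1 the rise was 0.53 on the log2 scale (adjusted p = 5.35e-06).

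NUPR1 (chromosome 16, 28532708 to 28539174), a small stress-induced chromatin-binding protein gene, had the largest fall of the 10 under pyrimethamine. Its normalized counts were 1815, 1719, 1455 and 1859 in the control, 307, 358, 326 and 331 under pyrimethamine, and 1604, 2714, 2424 and 2576 under mitoxantrone. All pyrimethamine libraries were far below the others, whereas mitoxantrone replicate 1 lay within the control range. NUPR1 was 5.15-fold lower under pyrimethamine (log2 change -2.37, SE 0.115, adjusted p = 8.84e-13), a lower change than in all but 0.0826% of tested genes. Under mitoxantrone it was 1.34-fold higher (log2 change 0.42, SE 0.115, adjusted p = 0.00274), and 0.59 on the log2 scale without replicate 1 (adjusted p = 1.65e-07).

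SESN2 and DDIT4 encode inhibitors of the growth kinase complex mTORC1, and they responded differently to pyrimethamine. DDIT4 (REDD1; chromosome 10, 72273920 to 72276036), which acts through the TSC complex and is also induced by hypoxia and glucocorticoids, had 2643, 2653, 2522 and 2767 normalized counts in the control. It had 1229, 1251, 1117 and 1202 under pyrimethamine, and 13489, 8346, 10581 and 9412 under mitoxantrone. The groups were far apart, with the lowest mitoxantrone library well above the highest control. DDIT4 fell 2.21-fold under pyrimethamine (log2 change -1.14, SE 0.0898, adjusted p = 1.00e-09) and rose 3.89-fold under mitoxantrone (log2 change 1.96, SE 0.0898, adjusted p = 5.12e-14), the largest rise of the 10. Without mitoxantrone replicate 1 the rise was 1.83 on the log2 scale (adjusted p = 3.44e-18). Exons of DDIT4-AS1 on the other strand cover 41.2% of the DDIT4 exon sequence, at means of 3.93, 5.44 and 18.7 normalized counts in the control, pyrimethamine and mitoxantrone groups.

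SESN2 (chromosome 1, 28259527 to 28282491), a leucine-sensing protein gene that restrains mTORC1 through GATOR2, had 920.4, 849.6, 869.97 and 817 normalized counts in the control. Under pyrimethamine it had 1157, 1099, 1051 and 1006, and under mitoxantrone 1633, 1116, 1191 and 1118. Both drug groups lay above the control, and they overlapped each other. SESN2 rose under pyrimethamine (log2 change 0.32, SE 0.0902, adjusted p = 0.00515) and rose 1.45-fold under mitoxantrone (log2 change 0.53, SE 0.0902, adjusted p = 2.21e-05). Without mitoxantrone replicate 1 the rise under mitoxantrone was 0.40 on the log2 scale (adjusted p = 3.79e-06). Between the drugs the log2 difference was 0.21 (95% interval 0.0254 to 0.40, adjusted p = 0.0375). This last call rested on mitoxantrone replicate 1, without which the difference was 0.0838 (adjusted p = 0.225). It was also lost without pyrimethamine replicate 2, 3 or 4 (adjusted p = 0.0532, 0.0779 and 0.103).

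**Figure D2:**
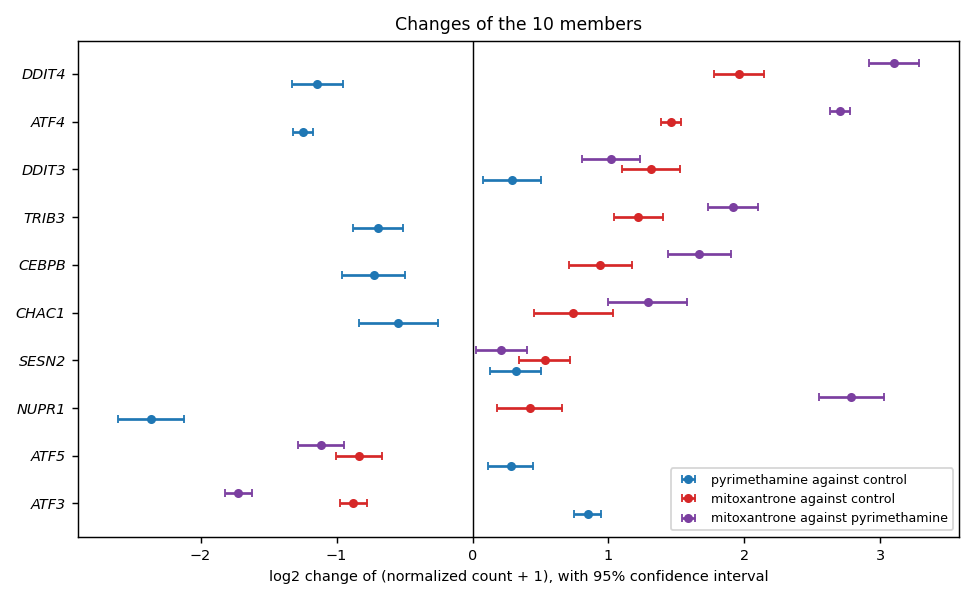
Log2 change of (normalized count + 1) on the x axis for each gene (y axis), with 95% confidence intervals from limma, for pyrimethamine and mitoxantrone against the shared control and for mitoxantrone against pyrimethamine. The 2 drugs lie on opposite sides of 0 for 8 of the 10 genes, NUPR1 has the lowest value under pyrimethamine (-2.37), and DDIT4 the highest under mitoxantrone (1.96).

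Directly between the drugs, DDIT4 was 8.58-fold higher under mitoxantrone (95% interval 7.54 to 9.76) and NUPR1 6.90-fold higher (5.85 to 8.15). TRIB3 was 3.77-fold higher, CEBPB 3.18-fold, CHAC1 2.44-fold and DDIT3 2.03-fold, while ATF3 was 3.31-fold and ATF5 2.17-fold lower, with adjusted p-values of 2.64e-08 or less for these 6. For 9 of the 10 genes the pyrimethamine and mitoxantrone libraries did not overlap, beside 68.8% of all tested genes. SESN2 was the exception. Against the control, no overlap was seen for all 10 under pyrimethamine, beside 51.1% of tested genes, and for 9 under mitoxantrone, beside 60.9%, where NUPR1 was the exception. The median log2 change of the 10 genes was -0.62 under pyrimethamine and 0.84 under mitoxantrone, against 0.0018 and -0.0080 over all tested genes.

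The order of the genes by level also changed. Per kb of annotated exon, ATF4 was the most abundant in the control, at 5139.8 ± 151 normalized counts per kb (SD, n = 4). ATF5, DDIT4, TRIB3 and ATF3 followed at 1339, 1286, 1224 and 1224 per kb, and neighbors among these 4 overlapped. CEBPB, NUPR1 and CHAC1 also overlapped, at 346, 302 and 299 per kb, and SESN2 (250.3) and DDIT3 (151) came last. Under pyrimethamine ATF3 and ATF4 held the first places with overlapping libraries, at 2202 and 2169 per kb, and NUPR1 fell to the last, at 58.2 per kb. Under mitoxantrone ATF4 (14133), DDIT4 (5081) and TRIB3 (2894) led without overlap on this length, and each of the other 7 overlapped its neighbor in the order, from ATF5 at 759 to SESN2 at 366 per kb. These levels depend on the length used. With the principal transcript in place of all exons, ATF3 came second in the control, at 2432 per kb, and no longer overlapped ATF4 under pyrimethamine, at 4376 against 2701 per kb. Under mitoxantrone DDIT4 and TRIB3 then overlapped, at 5982 ± 1269 and 3977 ± 795.9 per kb (SD, n = 4 each). For NUPR1 both lengths were long and nearly alike, at 5.674 and 5.491 kb, so its place was hardly tested by this change. Not divided by length, its mean under pyrimethamine was above that of DDIT3, at 330 against 242 normalized counts. Together the 10 genes took 0.0525% of control reads, 0.0392% of reads with pyrimethamine and 0.101% with mitoxantrone.

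Under mitoxantrone the members varied more between libraries than most genes did. Their median coefficient of variation was 19.8%, against 5.90% for the 11777 genes that averaged 100 normalized counts or more in that group, and 7 of the 10 were above the 95th percentile of those genes (16.3%). In the control and under pyrimethamine the median over members was 3.99% and 4.93%, and none was above the 95th percentile. ATF4 was the exception under mitoxantrone, with a coefficient of 2.36%, and CHAC1 had the highest, 34.9%. The SE and p-values of each gene rest on a spread pooled over all groups. For most members this can overstate the spread of the control and pyrimethamine libraries and understate that of the mitoxantrone libraries. The spread under mitoxantrone was not equal in direction. ATF4, ATF3, CHAC1, SESN2 and DDIT4 were highest in mitoxantrone replicate 1 and lowest in replicate 2, an order found in 9.76% of the 11777 genes. ATF5, DDIT3, TRIB3 and NUPR1 had the reverse order, found in 13.6%. Without replicate 1 the median coefficient of variation was 12.3% for the members and 4.33% for the 11777 genes, so the members also differed among the remaining 3 libraries. The same library had the lowest mitochondrial share, 3.23% against 3.84% to 3.89% in the other 3, and the part of this in the members' values was not tested.

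**Figure D3:**
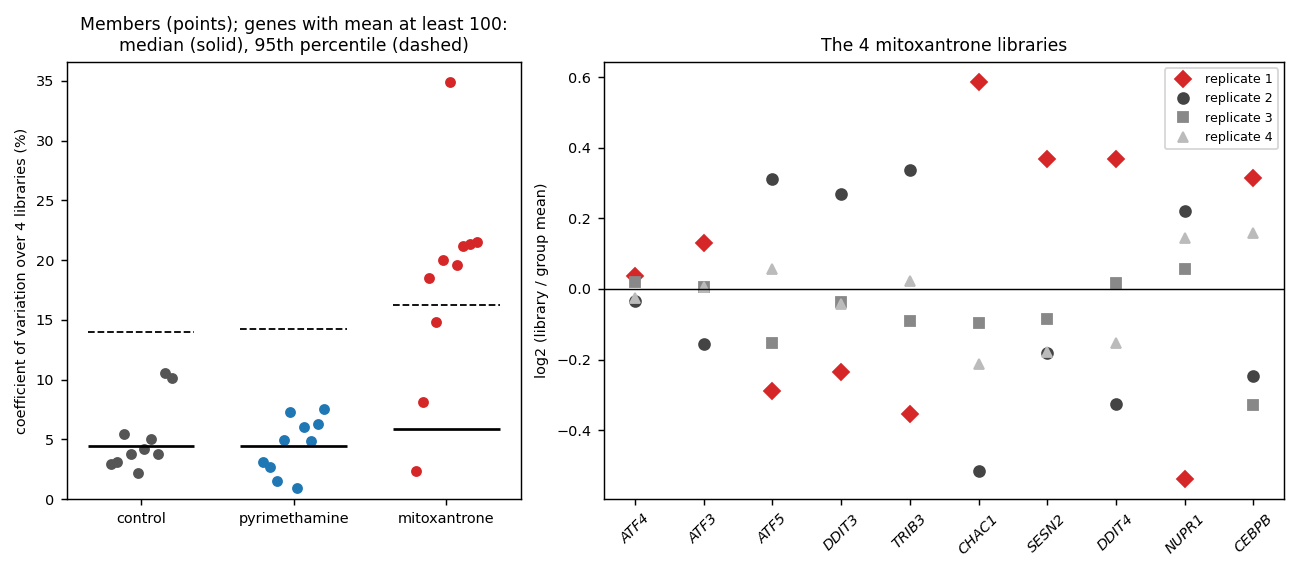
Left, coefficient of variation (%) over the 4 libraries of each group for the 10 genes (points), with the median (solid line) and 95th percentile (dashed line) of genes that averaged 100 normalized counts or more. Right, log2 ratio of each mitoxantrone library to the group mean for each gene; replicate 1 is highest for 6 genes and lowest for 4, and the 4 libraries nearly coincide for ATF4.

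Most other listed targets of ATF4 moved in the direction of ATF4. Of 39 further genes commonly listed as ATF4 targets, 38 were tested, and 27 were lower, 5 higher and 6 not called under pyrimethamine, with a median log2 change of -0.40. This list was chosen with earlier results of these data known, so its counts are a description only. Under mitoxantrone 35 were higher, 1 (CBS) lower and 2 (CTH and VLDLR) not called, with a median of 0.57. Over all tested genes 26.4% were higher and 26.9% lower under pyrimethamine, and 33.5% and 35.8% under mitoxantrone. The mitoxantrone calls of GDF15 (adjusted p = 0.0238) and SLC7A1 (adjusted p = 0.0193) were lost in 7 and 8 of 21 alternatives. Under the alternatives 32 to 35 targets were higher. The 2 most responsive targets encode secreted factors. INHBE, an inhibin subunit gene, went from 86.0 ± 11.9 normalized counts in the control to 15.2 ± 5.21 with pyrimethamine and 1037 ± 159.9 with mitoxantrone (SD, n = 4 each), with log2 changes of -2.47 and 3.58. FGF21, a stress hormone gene, went from 6.94 ± 1.72 to 1.96 ± 2.68 and to 129.8 ± 24.7, with log2 changes of -1.78 and 4.04. Both INHBE and FGF21 were called in each comparison. FGF21 met the filter only through its mitoxantrone libraries (93.0 to 146), since its highest values were 9.34 in the control and 5.91 under pyrimethamine. Its calls are therefore those of a gene admitted to the test by the group in which it rose. Its fall under pyrimethamine lies between counts that are all below the filter's minimum. The asparagine synthetase gene ASNS, a textbook ATF4 target, was low here, at 44.1 ± 22.7, 14.7 ± 8.79 and 88.4 ± 17.7 normalized counts, with log2 changes of -1.55 (adjusted p = 0.00195) and 1.13 (adjusted p = 0.0140), the latter not called without control replicate 3 or without a variance trend (highest adjusted p 0.0716). SLC7A11, the cystine transporter gene, had log2 changes of -0.64 and 1.89.

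The 5 targets that rose under pyrimethamine were GDF15, a stress cytokine gene (log2 change 0.86), the large neutral amino acid transporter genes SLC7A5 (0.60) and SLC3A2 (0.28), the cystathionine gamma-lyase gene CTH (0.32) and the leucyl-tRNA synthetase gene LARS (0.29). The CTH call was marginal (adjusted p = 0.0396) and was lost in 8 of 21 alternatives, among them leaving out control replicate 1, 3 or 4 or pyrimethamine replicate 1, 2 or 3 (highest adjusted p 0.125). CBS, which feeds CTH, was lower under mitoxantrone by a small margin (log2 change -0.23, adjusted p = 0.0378). The CBS call was lost in 8 of 21 alternatives, among them leaving out control replicate 2 or 4 or mitoxantrone replicate 1 or 4 (highest adjusted p 0.153). Between the drugs 33 of 38 targets were higher under mitoxantrone, led by INHBE (log2 difference 6.05), FGF21 (5.83) and ASNS (2.68). Of all tested genes, 36.9% were higher and 39.5% lower in that comparison. The 5 targets that were lower were CTH (-0.47), GDF15 (-0.45), SLC7A5 (-0.24), LARS (-0.11) and VLDLR (-0.11). The GDF15 call between the drugs was lost in 4 alternatives, one of them without mitoxantrone replicate 1, and that of VLDLR without pyrimethamine replicate 1 or mitoxantrone replicate 3 (highest adjusted p 0.0915 and 0.0620). The CTH call between the drugs was lost with quantile normalization (adjusted p = 0.115). STC2, the 1 target not tested, had at most 5.27 normalized counts in any library.

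**Figure D4:**
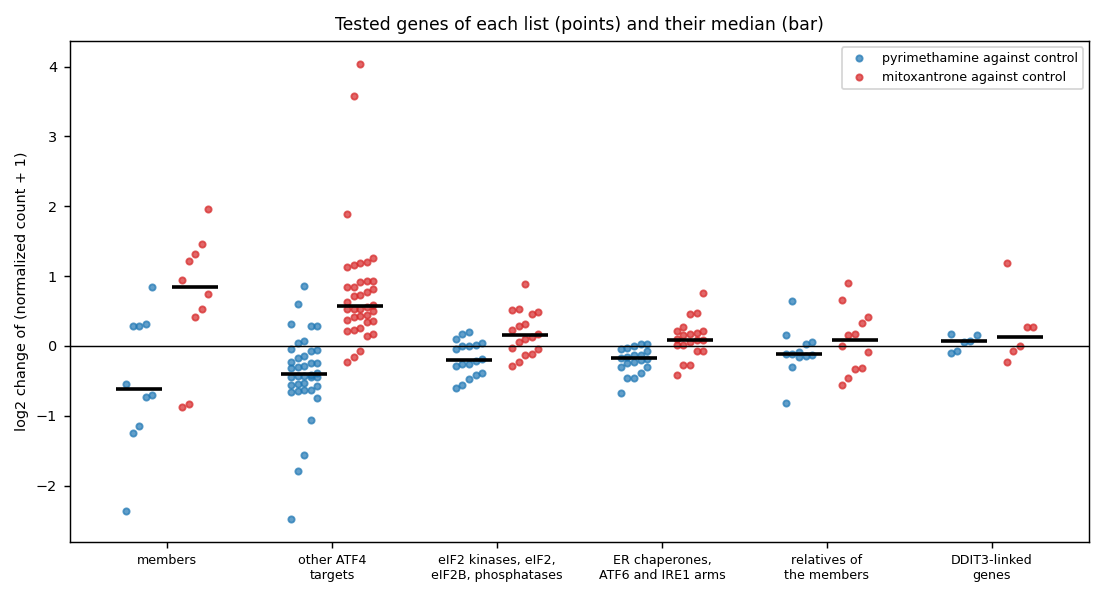
Log2 change of (normalized count + 1) against the control (y axis) of every tested gene (points) in 6 gene lists (x axis), for pyrimethamine and mitoxantrone, with the list's median as a bar. Medians of the 10 members and of the 38 other ATF4 targets lie at -0.62 and -0.40 under pyrimethamine and at 0.84 and 0.57 under mitoxantrone, and those of the other 4 lists lie closer to 0.

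Genes of the machinery upstream of ATF4 had smaller median changes than its targets. Of 18 genes for eIF2 kinases, eIF2, eIF2B, the eIF2 phosphatase subunits and regulators of the kinases, 10 were lower, 2 higher and 6 not called under pyrimethamine (median log2 change -0.20). The largest falls were those of IMPACT, an inhibitor of GCN2 activation (-0.60), OMA1, the mitochondrial protease that cleaves DELE1 (-0.57), and EIF2AK2, encoding PKR (-0.47). DELE1, which carries mitochondrial stress to HRI, rose by 0.20 and the phosphatase subunit gene PPP1R15B by 0.17, a call lost with libraries rescaled to the same total (adjusted p = 0.0746). Under mitoxantrone 10 were higher, 4 lower and 4 not called (median 0.15). Among all tested genes 26.4% were higher and 26.9% lower under pyrimethamine, and 33.5% and 35.8% under mitoxantrone. Of the 10, PPP1R15B (0.13, adjusted p = 0.0213) lost its call in 6 of 21 alternatives, among them without control replicate 4 or mitoxantrone replicate 1. OMA1 rose by 0.88, EIF2S3, the eIF2 gamma subunit gene, by 0.52 and EIF2B5, the catalytic subunit of eIF2B, by 0.51. Those that fell were PPP1R15A (GADD34), the stress-induced phosphatase subunit that closes the feedback loop (-0.28), EIF2AK3, encoding PERK (-0.23), EIF2B1 (-0.13) and GCN1, a coactivator of GCN2 (-0.12). Between the drugs 12 were higher and 4 lower under mitoxantrone, beside 36.9% and 39.5% of all tested genes. OMA1 (log2 difference 1.45), IMPACT (1.08) and EIF2B5 (0.77) led the higher ones. The 4 lower genes were PPP1R15A (-0.39), EIF2AK3 (-0.24), EIF2B1 (-0.13) and GCN1 (-0.12). Both GCN1 calls were marginal (adjusted p = 0.0354 against the control and 0.0294 between the drugs). They were lost in 8 and 7 of 21 alternatives, each without mitoxantrone replicate 3 or 4, the first also without control replicate 1, 2 or 3 and the second without pyrimethamine replicate 1.

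The other arms of the unfolded protein response, run by ATF6 and by IRE1 with XBP1, were described by 20 genes, mostly endoplasmic reticulum chaperones. Under pyrimethamine 13 were lower and 7 not called by limma, with a median log2 change of -0.17. None was higher, and the count was also 0 at an unadjusted p under 0.05 and with edgeR and DESeq2. Over all tested genes 26.4% were higher and 26.9% lower under pyrimethamine, and 33.5% and 35.8% under mitoxantrone. HERPUD1, a factor in endoplasmic reticulum associated degradation, had a log2 change of -0.68, XBP1 one of -0.46 and the disulfide isomerase gene PDIA6 one of -0.46, and all 3 were called. Under mitoxantrone 9 were higher, 3 lower and 8 not called (median 0.0929), with XBP1 at 0.75, HSPA5, the chaperone BiP, at 0.48 and HSP90B1 at 0.46. CRELD2 (-0.42), DNAJB9 (-0.28) and DNAJC3 (-0.28), targets of ATF6 or XBP1, fell. This split moved with the scaling: with libraries rescaled to the same total 5 were higher and 5 lower, and with quantile normalization 6 were lower. Between the drugs 15 were higher under mitoxantrone, led by XBP1 (log2 difference 1.21), HERPUD1 (0.85) and HSPA5 (0.66), and CRELD2 (-0.17) and CALR (-0.10) were lower. The shares of all tested genes in that comparison were 36.9% higher and 39.5% lower. The CALR call was lost without pyrimethamine replicate 1 (adjusted p = 0.0598).

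Close relatives of the members did not all share their pattern. Of 14 relatives 12 were tested, since DDIT4L and NUPR2, the paralogs of DDIT4 and NUPR1, had 0 reads in every library. Of the 12, 2 were higher and 3 lower under pyrimethamine, beside 26.4% and 26.9% of all tested genes. Under mitoxantrone 6 were higher and 4 lower, beside 33.5% and 35.8%. TRIB1 and TRIB2, pseudokinase paralogs of TRIB3, differed: TRIB1 rose under pyrimethamine (0.64) and fell under mitoxantrone (-0.55), the opposite of TRIB3, while TRIB2 had -0.15 under pyrimethamine (adjusted p = 0.183) and rose by 0.91 under mitoxantrone. Also called under pyrimethamine were JDP2, a bZIP repressor related to ATF3, with a log2 change of -0.82, SESN3 with -0.29, CEBPG with -0.15 and ATF2 with 0.16. Under mitoxantrone CEBPG, a partner of ATF4 at amino acid genes, rose by 0.66, and SESN1, ATF1, ATF2 and SESN3 also rose, by 0.42, 0.33, 0.17 and 0.15. CEBPD, JDP2 and ATF7 fell there with -0.46, -0.33 and -0.32. CHAC2, the constitutive paralog of CHAC1, had 0.06 and -0.09 against the control and passed the test for neither drug there. Between the drugs 6 relatives were higher and 4 lower under mitoxantrone, beside 36.9% and 39.5% of all tested genes. TRIB2 (log2 difference 1.06) and CEBPG (0.81) led the higher ones, and TRIB1 (-1.19), CEBPD (-0.35), ATF7 (-0.20) and CHAC2 (-0.15) were the lower ones. Some of these calls were lost under alternatives: both of ATF2 with libraries rescaled to the same total (adjusted p = 0.108 and 0.249), that of SESN3 under mitoxantrone in 6, among them without control replicate 2 or 4 (highest adjusted p 0.409), and that of CHAC2 without mitoxantrone replicate 2 (adjusted p = 0.0520). CEBPD lost its call with quantile normalization in both comparisons (adjusted p = 0.0654 against the control), and between the drugs also without pyrimethamine or mitoxantrone replicate 3.

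Genes linked to DDIT3 in cell death changed little apart from BBC3. Of 6 such genes, BCL2L11 (0.18) and ERO1A (0.16) were higher under pyrimethamine and 4 were not called by limma. Both calls were lost with libraries rescaled to the same total (adjusted p = 0.114 and 0.0525), and that of BCL2L11 also without control replicate 3 or pyrimethamine replicate 3. No gene was lower, also at an unadjusted p under 0.05 and with edgeR and DESeq2. For all tested genes the shares were 26.4% higher and 26.9% lower under pyrimethamine, and 33.5% and 35.8% under mitoxantrone. Under mitoxantrone BBC3, encoding the BH3-only protein PUMA, rose from 107 ± 9.22 to 244.8 ± 25.0 normalized counts (SD, n = 4 each; log2 change 1.19, adjusted p = 7.62e-08). BCL2 and BCL2L11 rose by 0.27 each, and TNFRSF10B, the death receptor DR5 gene induced by CHOP, fell with -0.23. Between the drugs BBC3, at 102 ± 12.3 normalized counts under pyrimethamine, and BCL2 (log2 difference 0.37) were higher and TNFRSF10B (-0.28) and ERO1A (-0.24) lower under mitoxantrone. In that comparison 36.9% of all tested genes were higher and 39.5% lower.

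Sequences before the starts listed by RefSeq were read for the letters of known elements, since ATF4 acts with C/EBP factors on composite sites. RefSeq start windows (GRCh38.p14) were given for 9 members, and NUPR1 has no entry. In the 250 bases before a start, on either strand, the C/EBP-ATF element TGATGCAA was found in 1 of 9 members, CHAC1, in 4 of 30 other ATF4 targets with a window (AARS1, FGF21, IARS1 and SLC1A5), and in 0.967% of 27305 genes. With the sixth letter left free (TGATGNAA, which includes all of those matches), ATF3 joined the members, ASNS and GARS1 joined the other targets, and the share over all genes was 3.89%. No member held the full cAMP response element TGACGTCA, found in 2.03% of genes. A gene can have several listed starts, and a match is only a match of letters. The starts also differ between annotations, so that a window before a RefSeq start can lie inside the gene span of GENCODE release 29 used for the positions above. All 8 genes with a match follow, with the matched letters in capitals, so that the element can be read in its context on the gene's own strand, 5′ to 3′. Distances run from the first base of the match to the RefSeq start named.
CHAC1, chr15:40953252-40953279, 209 bases before its 1 listed start: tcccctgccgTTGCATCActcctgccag
FGF21, chr19:48755460-48755487, 54 bases before its 1 listed start: aacaccaggaTTGCATCAgggaggagga
SLC1A5, chr19:46784894-46784921, 97 bases before the last of 3 listed starts: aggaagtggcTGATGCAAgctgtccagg
AARS1, chr16:70289676-70289703, 187 bases before its 1 listed start: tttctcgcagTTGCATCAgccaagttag
IARS1, chr9:92293698-92293720, 13 bases before its 1 listed start: tttcagcgcgTTGCATCAcctcc
ASNS, chr7:97872459-97872486, 68 bases before the first of 2 listed starts: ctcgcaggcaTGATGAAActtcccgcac
GARS1, chr7:30594835-30594862, 33 bases before the second of 2 listed starts: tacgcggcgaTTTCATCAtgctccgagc
ATF3, chr1:212565206-212565233, 191 bases before the first of 2 listed starts: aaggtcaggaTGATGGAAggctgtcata
In CHAC1, FGF21, AARS1, IARS1 and GARS1 the element lies on the reverse strand, and in SLC1A5, ASNS and ATF3 on the strand of the gene. Against the GENCODE spans, the match lies before the gene in ATF3, FGF21 and AARS1. It lies inside the gene in CHAC1, 300 bases past its 5′ end, in GARS1, ASNS and IARS1, by 164, 66 and 46 bases, and in SLC1A5, by 3683 bases. SLC1A5, a glutamine transporter gene, had log2 changes of -0.31 and 0.92, and AARS1, the alanyl-tRNA synthetase gene listed as AARS in the deposited table, had -0.44 and 0.44. GARS1, the glycyl-tRNA synthetase gene, had -0.43 and 0.81. IARS1, the isoleucyl-tRNA synthetase gene, holds the exact element but was not called under pyrimethamine (log2 change -0.05, adjusted p = 0.374), and rose by 0.63 under mitoxantrone. ATF3, as given above, rose under pyrimethamine and fell under mitoxantrone.

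DDIT4 and SESN2 are shown next because these mTORC1 inhibitor genes moved in opposite directions under pyrimethamine, at -1.14 and 0.32 on the log2 scale. The stretches lie just upstream of the gene starts and hold no annotated exon of the gene they precede. Exons of other genes were not compared with them. Both are on the plus strand, with CCAAT boxes (CCAAT, or ATTGG on the reverse strand) in capitals (RefSeq, GRCh38.p14).
DDIT4, chr10:72273674-72273919: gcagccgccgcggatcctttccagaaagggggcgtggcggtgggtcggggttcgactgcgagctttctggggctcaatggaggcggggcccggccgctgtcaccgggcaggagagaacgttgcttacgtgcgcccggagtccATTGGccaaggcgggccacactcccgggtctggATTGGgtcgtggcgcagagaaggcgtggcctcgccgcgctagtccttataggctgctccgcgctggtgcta
SESN2, chr1:28259268-28259517: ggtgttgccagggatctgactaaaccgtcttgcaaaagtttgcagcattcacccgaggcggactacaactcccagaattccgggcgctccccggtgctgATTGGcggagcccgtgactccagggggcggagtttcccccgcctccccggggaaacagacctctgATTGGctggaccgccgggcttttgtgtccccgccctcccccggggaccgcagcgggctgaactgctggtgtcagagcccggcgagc
Each stretch held 2 CCAAT boxes, both on the reverse strand, and neither held the C/EBP-ATF element in either form. Their GC content was 68.3% and 65.6%. A CCAAT box was found in 6 of the 9 members (ATF3, CEBPB, CHAC1, DDIT3, DDIT4 and SESN2), in 18 of the 30 other targets and in 37.0% of all genes. The ATF4 window held 1 E-box (CACGTG), found in 7.73% of genes, at 82 bases before the first of its 2 RefSeq starts. That E-box lies inside the GENCODE span of ATF4, 782 bases past its 5′ end.
ATF4, chr22:39520467-39520492: aggagacggtCACGTGgtcgcggcgg

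Genes with patterns most like those of ATF4, DDIT3 and NUPR1 were ranked by the root-mean-square difference, over the 12 libraries, of log2 values set to 0 at the control mean. Among 11513 genes that averaged 100 normalized counts or more, those nearest to ATF4 were LRP8, a lipoprotein receptor gene (difference 0.0831), ZBTB12 (0.154), SREBF1, the lipogenic transcription factor gene (0.183), and MID1IP1 (0.196). LRP8 went from 1090.2 ± 78.0 normalized counts in the control to 437 ± 24.7 with pyrimethamine and 2962 ± 296 with mitoxantrone (SD, n = 4 each). Of the members, DDIT4 (0.324), TRIB3 (0.383) and CEBPB (0.454) were nearest to ATF4, at places 33, 61 and 101, and ATF3 was the farthest (1.81). Nearest to DDIT3 were SNHG17 (0.154), TIMM13 (0.154), SNHG8 (0.172) and TMTC2 (0.172), and its nearest member was SESN2 (0.509), only at place 902. Nearest to NUPR1 were CCDC106 (0.387), KCNJ4 (0.434), COL26A1 (0.437) and LINC00626 (0.464), so that no gene came as close to NUPR1 as several did to ATF4. The member nearest to NUPR1 was ATF4 (0.905), at place 114. The difference also takes in a gene's spread between libraries. Under mitoxantrone the coefficient of variation was 21.4% for NUPR1 and 2.36% for ATF4. All of these values come from the same 12 libraries and describe likeness only.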

How the data were processed

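Per the submitters' processing notes, the tools named are featureCounts 1.5.1, STAR 2.6.90c, cutadapt 1.12 and FastQC 0.11.5, with the builds hg38 and mm10. The deposited values are a normalized signal, made by the authors by dividing the reads of each gene by a library-specific factor. The factor of each library was recovered from its own values. Multiplied by its factor, 100.0% of values were whole reads within 0.01. The factors matched median-of-ratios factors computed from the recovered reads, with a largest relative gap of 1.01e-10. The scaling tool, strand setting and handling of shared reads are not given in the sources used here. Changes come from limma 3.58.1 (R 4.3.3), on the log2(value + 1) scale, which understates changes of low genes, with 12 libraries, 16950 genes, group as the term and a variance trend. Tests were two-sided, with Benjamini-Hochberg adjustment over all tested genes and calls at 0.05. Lists were described by counts and medians. Named genes were the 10 members, the 4 genes most like ATF4, DDIT3 and NUPR1, and for each other list and comparison the 3 largest called changes and all genes behind counts of 5 or fewer. SLC1A5, AARS1, IARS1, GARS1 and some relatives were named after their values were seen. Members and lists were chosen with earlier results of these data known. Gene positions are from GENCODE release 29. As alternatives, the recovered reads were tested with DESeq2 1.42.0 and with edgeR 4.0.16. On simulated data with 50 genes changed 1.5-fold in each comparison, 40, 39 and 41 were recovered for pyrimethamine, mitoxantrone and the drugs against each other, in runs over 16950 genes. Of the unchanged genes, 14, 6 and 14 were called. The simulated spread was set alike for all genes and groups, and far fewer genes were changed than were called in the libraries. These rates therefore do not describe the members under mitoxantrone, which varied more. Python 3.11.15, pandas 2.3.3 and matplotlib 3.10.9 made tables and figures.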

Additional observations from a re-analysis of the deposited data

Results flagged for a closer look

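In each group of 4 libraries, the gap of the highest or lowest library to its nearest neighbor was set against the whole range for the 10 members, 30 groups in all. Dixon's 95% limit for 4 values is passed by chance in about 1 of 20 groups, and 3 groups passed it. SESN2 stood at 1633 normalized counts in mitoxantrone replicate 1, against 1116 to 1191 in the other 3 (ratio 0.855). ATF5 stood at 4907 in pyrimethamine replicate 3, against 4756 to 4765 (ratio 0.939). DDIT3 stood at 186 in control replicate 2, against 200.2 to 202 (ratio 0.908).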

How the results depend on the processing

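Every log2 change of a member kept its sign under 21 alternatives per comparison, 630 values in all, and 13 lost the call: 3 of DDIT3 under pyrimethamine and 10 of SESN2 between the drugs, with adjusted p of 0.0605 without a filter, 0.108, 0.117 and 0.111 under the 3 rescalings, 0.105 without a variance trend and 0.0607 with only the 8 libraries compared; the others stand beside SESN2 above. Rescaling to the same total moved the median of all genes to -0.11 for mitoxantrone. Under pyrimethamine it left 1 eIF2 gene, 0 DDIT3-linked genes and 1 relative higher, and 5 relatives lower. Against the control under mitoxantrone it left 5 chaperone genes higher and 5 lower (upper quartile 5, quantile 6 lower), 2 other ATF4 targets lower (upper quartile 2; 0 without a filter, without a trend or with 8 libraries), and 2 DDIT3-linked genes lower (upper quartile and quantile 2). Leaving out 1 library gave 1 to 2 DDIT3-linked genes higher and 3 to 5 relatives lower under pyrimethamine, 0 to 1 ATF4 targets (CBS; 0 without control replicate 2 or 4 or mitoxantrone replicate 1 or 4) and 1 to 2 DDIT3-linked genes lower under mitoxantrone, and 1 to 2 chaperone genes lower between the drugs. Replicate numbers did not pair the libraries (correlations of deviations -0.13 to 0.12), and with a replicate block 9057, 11749 and 12931 genes were called, against 9042, 11745 and 12956 without it, and the members' calls did not change. edgeR and DESeq2 gave 4 members higher and 6 lower, then 8 and 2, then 8 and 2, as limma did.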
